A study of Mus musculus with 10 samples.

Results

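The genes described here are those of the mouse osteoblast's glucose-control pathway: Ptprv, which encodes the phosphatase Esp, the insulin receptor gene Insr, and Ggcx and Vkorc1, which serve the γ-carboxylation of osteocalcin. Members were chosen by gene symbol, as all probe sets that the platform annotation pairs with Bglap, Bglap2, Bglap3, Ptprv, Ggcx, Insr or Vkorc1. This gave 7 of the 45101 probe sets of the array, for 4 of the 7 genes, out of 19324 gene symbols listed: 1 probe set for Ptprv, 3 for Insr, 2 for Ggcx and 1 for Vkorc1, each paired with 1 gene only. The annotation used here pairs no probe set with Bglap, Bglap2 or Bglap3, so the level of osteocalcin itself was not analysed here, and the values below are those of the genes around it.

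Osteocalcin is a small protein secreted by osteoblasts, the cells that form bone. The enzyme encoded by Ggcx adds carboxyl groups to its glutamate residues with reduced vitamin K as cofactor, and the reductase encoded by Vkorc1 regenerates that cofactor. The carboxylated protein binds bone mineral, while the undercarboxylated form is known in mice as a circulating hormone that promotes insulin secretion and glucose handling. Insulin acts on the osteoblast through Insr, Esp is known in mice to dephosphorylate that receptor, and FoxO1 is a transcription factor that insulin signalling holds outside the nucleus and that is known in mouse osteoblasts as a regulator of Esp and osteocalcin.

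Total RNA of osteoblasts from mice 2 to 3 days old, of the background strain given as C5BL6, was measured on 10 Affymetrix arrays. In 3 samples β-catenin, the nuclear carrier of canonical Wnt signals, was constitutively expressed in osteoblasts (called β-catenin active), in 3 samples FoxO1 was deleted in osteoblasts (FoxO1 deleted), and 4 samples were wild type. The labels name no promoter or Cre line that restricts either change to osteoblasts and no treatment, record sex as undetermined, and do not say whether a sample is 1 animal, a pool or a culture. The p-values therefore reflect spread among the samples as labelled, and that spread could be technical. All values are the deposited MAS5 signal on the log2 scale, so that a difference of 1 is a doubling, except where summed linear signal is given. Genotypes are compared within a probe set, or within a fixed set of marker probe sets. Where a level is set against the table's median, this is a rough guide to signal and not a comparison of amounts between genes.

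Defining osteoblast markers had signal far above the table's median in every genotype: Col1a1, the main collagen of bone, averaged 15.19 ± 0.09, 15.18 ± 0.16 and 15.11 ± 0.03 in β-catenin active, FoxO1 deleted and wild-type samples, and Ibsp, bone sialoprotein, averaged 14.84 ± 0.09, 14.73 ± 0.12 and 14.74 ± 0.12 (SD, n = 3, 3 and 4). A second Ibsp probe set averaged 13.13 ± 0.06, 13.01 ± 0.14 and 13.32 ± 0.04 in the same order, with both altered genotypes under all wild-type arrays (differences from wild type of -0.20 and -0.32, adjusted p = 0.37 and 0.389). Markers of other cells were also present, such as Acta1 of skeletal muscle and Csf1r of macrophages at wild-type means of 14.64 and 13.33. In a bulk sample, fewer cells of a type and less RNA per cell cannot be told apart. Among wild-type arrays, the correlation over tested probe sets was 0.989 for 1 with 2 and 0.988 for 3 with 4, against 0.971 to 0.973 for the other pairs, so the wild-type group may hold fewer than 4 independent samples. The same pairs also matched in the Xist and Eif2s3y signal given next, and the source of their likeness was not tested. Xist signal was high, at 14.05 or more, in wild type 3 and 4 and FoxO1 deleted 2 and 3, and no more than 8.96 elsewhere, which includes every β-catenin active array. Eif2s3y, a Y-linked gene, had the reverse pattern, with 4.34 or less in those 4 arrays and 10.78 or more in the others. The Foxo1 probe set of highest mean averaged 9.87 ± 0.24 in FoxO1 deleted samples and 10.04 ± 0.07 in wild type (adjusted p = 0.728 in limma), and FoxO1 deleted 2, at 10.13, was the highest of the 10 arrays. The other Foxo1 probe sets tested averaged 9.14 ± 0.07 and 8.19 ± 0.19 in FoxO1 deleted samples, against 9.09 ± 0.08 and 8.09 ± 0.13 in wild type (adjusted p = 0.932 and 0.907). The sources used here do not say which part of the gene was deleted, so these probe sets cannot check the label.

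Ptprv was measured by 1 probe set, 1449957_at, above the table's median of 7.15 on all 10 arrays. The RefSeq table lists the mouse gene, on chromosome 1, as a transcribed pseudogene under the synonyms Esp and OST-PTP. Its signal was 10.07, 9.44 and 10.40 in the β-catenin active arrays, 10.11, 10.21 and 10.03 in the FoxO1 deleted arrays and 9.87, 10.24, 9.99 and 9.95 in the wild-type arrays. The lowest and the highest of the 10 values were both β-catenin active arrays, and the genotypes overlapped. Means were 9.97 ± 0.49 with β-catenin active, 10.12 ± 0.09 with FoxO1 deleted and 10.01 ± 0.16 in wild type (SD). FoxO1 deleted samples differed from wild type by 0.10 ± 0.18 (SE), with a 95% interval of -0.30 to 0.51 (0.813- to 1.42-fold; limma adjusted p = 0.917). β-catenin active samples differed from wild type by -0.04 ± 0.18, with an interval of -0.44 to 0.36 (adjusted p = 0.961), and without β-catenin active 2 this difference was 0.22. β-catenin active samples differed from FoxO1 deleted samples by -0.15 ± 0.20 (interval -0.58 to 0.28, adjusted p = 0.929), and by 0.12 without the same array. From highest to lowest the order was FoxO1 deleted, wild type and β-catenin active, and no neighbours in it differed beyond their spread.

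Insr was represented by 3 probe sets, of which 1434446_at alone had signal high enough to be tested. It was at 9.84, 10.12 and 10.06 in the β-catenin active arrays, 10.05, 10.20 and 10.24 in the FoxO1 deleted arrays and 10.02, 10.06, 10.03 and 9.95 in the wild-type arrays. FoxO1 deleted 2 and 3, both with high Xist signal, lay above every other array, and FoxO1 deleted 1 lay within the wild-type range. FoxO1 deleted samples averaged 10.16 ± 0.10 and wild type 10.02 ± 0.05, a difference of 0.15 ± 0.09 (95% interval -0.06 to 0.36, 0.960- to 1.28-fold; limma adjusted p = 0.727). β-catenin active samples averaged 10.01 ± 0.15 and differed from wild type by -0.01 ± 0.09 (interval -0.22 to 0.20, adjusted p = 0.988) and from FoxO1 deleted by -0.16 ± 0.10 (interval -0.38 to 0.06, adjusted p = 0.794). The order was FoxO1 deleted, wild type and β-catenin active. The step between FoxO1 deleted and wild type was larger than either SD, although their arrays overlapped and the test was not passed, and wild type and β-catenin active did not differ beyond their spread. The level of the receptor transcript was among the steadiest of the members, with an SD of 0.11 over the 10 arrays, at the 18.6th percentile among the 3970 probe sets whose mean lay within 0.5 of it.

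The other Insr probe sets, 1421380_at and 1450225_at, stayed under the table's median on every array and were not tested. 1421380_at ran from 4.13 to 5.76 with β-catenin active, from 3.71 to 6.23 with FoxO1 deleted and from 4.58 to 6.12 in wild type. 1450225_at ran from 2.37 to 5.31, from 4.61 to 5.89 and from 2.23 to 5.58 in the same order of genotypes. In both, arrays of 1 genotype spread over more than the genotype means differ, so these probe sets give no direction for Insr.

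**Figure D1:**
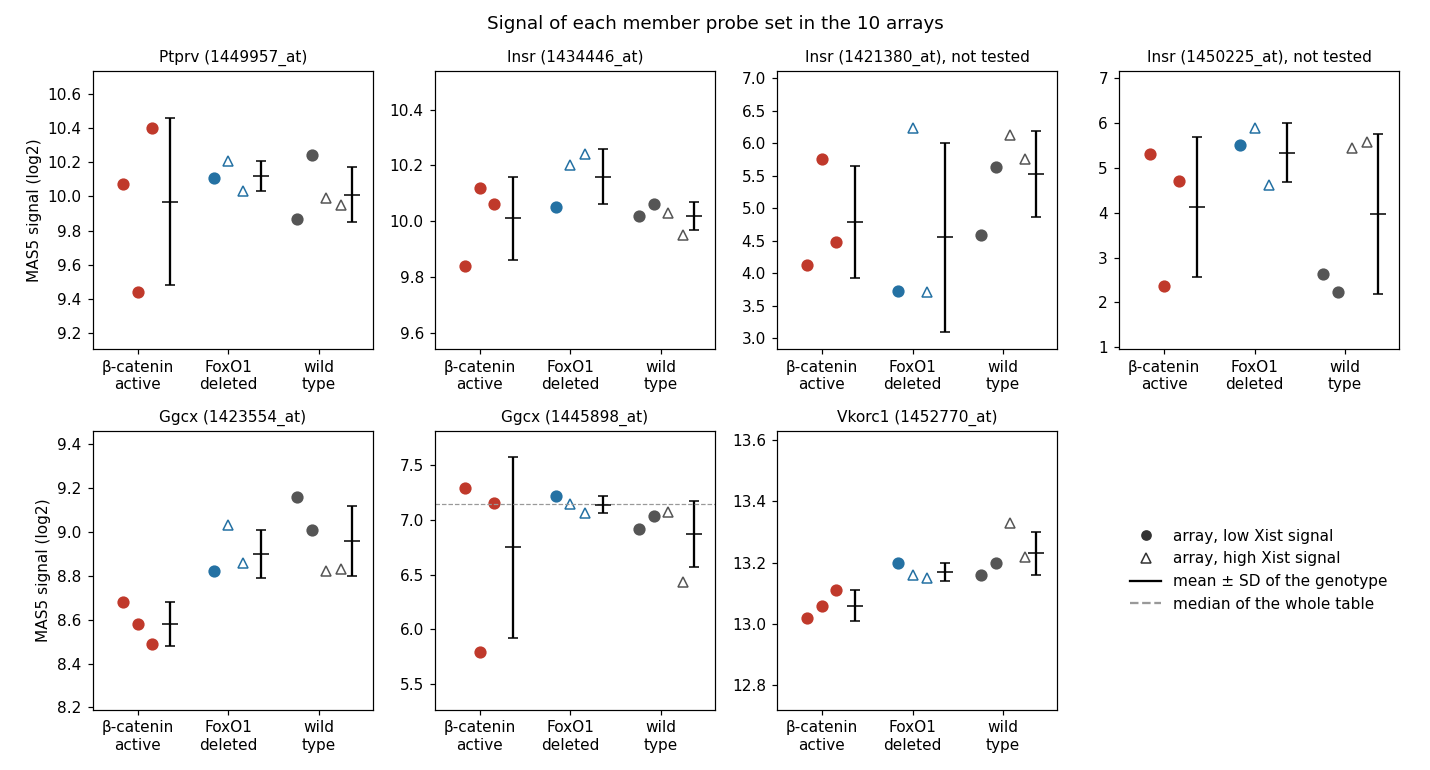
MAS5 signal (log2, vertical axis, its range set per panel) of the 7 member probe sets in each array, with β-catenin active, FoxO1 deleted and wild-type arrays from left to right, filled circles for low and open triangles for high Xist signal, and bars for mean ± SD. Ggcx 1423554_at and Vkorc1 are the panels where all β-catenin active arrays (at 8.68 or less and 13.11 or less) lie under all others (at 8.82 or more and 13.15 or more).

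Ggcx and Vkorc1 are shown with the 250 bases before their transcription start, since they were the 2 genes whose β-catenin active arrays lay apart from all others and since the genotypes alter a partner of TCF/LEF factors and a FoxO factor. The windows are from RefSeq on GRCm38.p6, for Ggcx chr6:72414058-72414307 on the plus strand and for Vkorc1 chr7:127895618-127895867 on the minus strand, and are printed 5′ to 3′ with motif matches in capitals. They are the table's entries for these genes, and Ptprv and Insr are named only.
Ggcx: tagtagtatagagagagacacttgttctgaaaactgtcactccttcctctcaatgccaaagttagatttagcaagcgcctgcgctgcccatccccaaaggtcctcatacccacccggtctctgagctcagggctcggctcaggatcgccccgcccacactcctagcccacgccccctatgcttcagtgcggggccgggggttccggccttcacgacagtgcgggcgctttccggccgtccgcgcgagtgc
Vkorc1: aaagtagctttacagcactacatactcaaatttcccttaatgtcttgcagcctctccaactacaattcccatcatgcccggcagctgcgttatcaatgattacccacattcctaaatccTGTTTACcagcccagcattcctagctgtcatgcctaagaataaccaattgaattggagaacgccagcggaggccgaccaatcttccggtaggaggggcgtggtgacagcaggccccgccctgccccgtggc
Both strands were searched for the TCF/LEF motif as ACAAAG and TCAAAG and for the FoxO motif as GTAAACA. The Ggcx window holds none of the 3, and the Vkorc1 window holds 1 FoxO match, read on the opposite strand, whose first base lies 131 bases before the start. Over all 32851 promoter windows of 250 bases, ACAAAG was found in 16.5%, TCAAAG in 13.8% and GTAAACA in 3.17%. A match is a description of the letters and does not show a binding site, and a window without one says nothing about the factor.

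Ggcx, the vitamin K-dependent γ-carboxylase on chromosome 6, had the largest difference from wild type among the tested member probe sets with β-catenin active, and it did not pass the test. Its probe set 1423554_at was at 8.68, 8.58 and 8.49 in the β-catenin active arrays, 8.82, 9.03 and 8.86 in the FoxO1 deleted arrays and 9.16, 9.01, 8.82 and 8.83 in the wild-type arrays. Every β-catenin active array was thus lower than every array of both other genotypes. Means were 8.58 ± 0.10 with β-catenin active, 8.90 ± 0.11 with FoxO1 deleted and 8.96 ± 0.16 in wild type. The β-catenin active difference from wild type was -0.37 ± 0.12 (0.773-fold, 95% interval -0.63 to -0.11; unadjusted p = 0.00964, adjusted p = 0.239 in limma), and that from FoxO1 deleted was -0.32 ± 0.13 (0.801-fold, unadjusted p = 0.029, adjusted p = 0.581). FoxO1 deleted samples differed from wild type by -0.05 ± 0.12 (interval -0.31 to 0.21, adjusted p = 0.940). In order, wild type and FoxO1 deleted did not differ beyond their spread, and the step from FoxO1 deleted to β-catenin active was larger than either SD.

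The wild-type arrays of Ggcx split by their similar pairs, with 9.16 and 9.01 in wild type 1 and 2, which have low Xist signal like the β-catenin active arrays, and 8.82 and 8.83 in wild type 3 and 4. Restricted to low-Xist arrays, the difference was -0.50 (adjusted p = 0.198). With each similar pair averaged it stayed at -0.37 and its adjusted p was 0.847. The second Ggcx probe set, 1445898_at, cleared the signal threshold narrowly, with 3 arrays above the table's median of 7.15 and the lowest of those 3 at 7.16. It was at 7.29, 5.79 and 7.16 with β-catenin active, 7.22, 7.15 and 7.06 with FoxO1 deleted and 6.92, 7.04, 7.07 and 6.43 in wild type. Its β-catenin active difference from wild type of -0.12 ± 0.34 (adjusted p = 0.941) was 0.36 without β-catenin active 2, so its direction rests on that array.

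Vkorc1, the vitamin K epoxide reductase on chromosome 7, was measured by 1452770_at at 13.02, 13.06 and 13.11 with β-catenin active, 13.20, 13.16 and 13.15 with FoxO1 deleted and 13.16, 13.20, 13.33 and 13.22 in wild type. As for Ggcx 1423554_at, the β-catenin active arrays lay under all others, here by a smaller step. Means were 13.06 ± 0.05, 13.17 ± 0.03 and 13.23 ± 0.07 in that order of genotypes. β-catenin active samples differed from wild type by -0.16 ± 0.07 (0.892-fold, 95% interval -0.31 to -0.01; unadjusted p = 0.0339, adjusted p = 0.394 in limma) and from FoxO1 deleted samples by -0.11 ± 0.07 (adjusted p = 0.814). FoxO1 deleted samples differed from wild type by -0.06 ± 0.07 (interval -0.21 to 0.09, adjusted p = 0.867). The order of wild type, FoxO1 deleted and β-catenin active was the same as for Ggcx 1423554_at, and the first 2 of these did not differ beyond their spread. The 10 arrays spanned 0.31 on the log2 scale, the narrowest range of the 7 probe sets.

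With β-catenin active, 0 of the 5 tested member probe sets passed limma's test at an adjusted p under 0.05, against 0.449% of all 23815 tested, and 2 of 5 had an unadjusted p under 0.05, against 11.1%. The same 2, Ggcx 1423554_at and Vkorc1, had no overlap between β-catenin active and wild-type arrays, against 12.9% of all tested probe sets. With FoxO1 deleted, 0 of 5 passed against wild type (0.0168% of all tested), 0 of 5 had an unadjusted p under 0.05 (7.92%), and the arrays overlapped for each of the 5 (9.21% of all tested did not). Between β-catenin active and FoxO1 deleted, 0 of 5 passed (0.403%), 1 of 5 had an unadjusted p under 0.05 (7.64%), and 2 of 5 did not overlap (9.57%). The intervals for 1423554_at, Insr, Vkorc1 and Ptprv in both comparisons with wild type lie between 0.644- and 1.42-fold. This is how closely 3 and 4 arrays bound their change if all arrays are independent. The wild-type group may hold fewer than 4 independent samples, in which case these bounds are too narrow.

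**Figure D2:**
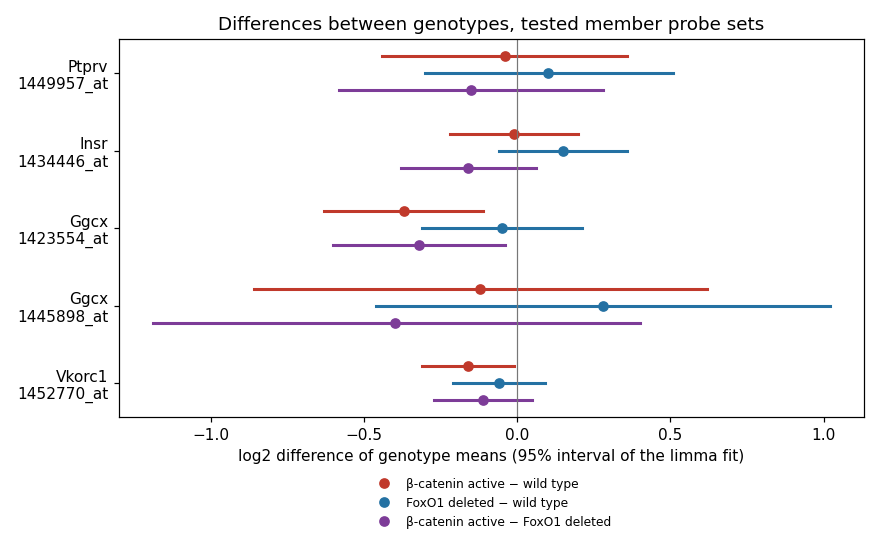
Log2 difference of genotype means (horizontal axis) with its 95% interval from the limma fit for the 5 tested member probe sets, in the 3 comparisons named in the legend. The intervals of Ggcx 1423554_at with β-catenin active run from -0.63 to -0.11 against wild type and from -0.60 to -0.04 against FoxO1 deleted, that of Vkorc1 against wild type from -0.31 to -0.01, and the others include 0.

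Signals of other cell types differed between the same arrays. Summed linear signal of the 6 neutrophil markers measured, of 7 listed, was 2557 to 3564 in β-catenin active arrays, 1164 to 9451 in FoxO1 deleted arrays and 12709 to 27994 in wild-type arrays, with Mpo at the lowest β-catenin active mean of 6.21. The 4 erythroid markers measured, of 7, summed to 404 to 731 with β-catenin active, 412 to 1577 with FoxO1 deleted and 1010 to 2814 in wild type. Higher without overlap in β-catenin active than in wild-type arrays were the summed signals of 8 of 9 chondrocyte markers (20920 to 28554 against 12168 to 18831), all 6 endothelial markers (6238 to 6542 against 5077 to 5334), 5 of 6 osteocyte markers (38147 to 41860 against 28851 to 34679), all 7 fibroblast and smooth muscle markers (55980 to 64057 against 48774 to 53738) and 4 of 6 adipocyte markers (15380 to 20221 against 13122 to 14851). These sums are carried by the most abundant genes. As means of log2 signal, the osteocyte markers (10.76 to 11.75 against 11.15 to 11.30) and the adipocyte markers (10.08 to 10.80 against 10.12 to 10.20) overlapped. FoxO1 deleted arrays also had summed signals above all wild-type arrays for the chondrocyte (20379 to 55010) and osteocyte (34741 to 43183) markers. Their endothelial, fibroblast and smooth muscle, and adipocyte sums overlapped those of wild type. RNA integrity, read as the log2 signal of the Actb 3′ control less that of its 5′ control, was 0.85 to 0.88 with β-catenin active, 0.80 to 0.99 with FoxO1 deleted and 0.60 to 0.77 in wild type. The part of cell makeup and RNA integrity in the Ggcx and Vkorc1 differences was not tested.

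Around the members, the genes of 7 lists were measured, 70 of them besides the members, and 3 of the 70 passed the test in any comparison. The share of all tested probe sets that passed in any comparison was not counted. By comparison, 0.449% passed for β-catenin active against wild type, 0.0168% for FoxO1 deleted against wild type and 0.403% between the altered genotypes. An unadjusted p under 0.05 in limma was found for 11.1%, 7.92% and 7.64% in the same order, the background for the counts below. The rest of the vitamin K cycle, among it Vkorc1l1, the paralogue of Vkorc1, and Calu, calumenin, which inhibits the carboxylase system, gave no call. With β-catenin active, 0 of the 6 cycle genes tested (Ggcx and Vkorc1 included) passed in limma, 2 had an unadjusted p under 0.05, and the median difference was -0.10, against 0.00 over all tested probe sets. Vkorc1l1 differed by -0.04 (adjusted p = 0.946) and Calu by 0.03 (adjusted p = 0.936). With FoxO1 deleted the median of the list was -0.01, the same as over all tested probe sets, with no gene of the 6 passing and 0 below 0.05 before adjustment.

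Substrates of the carboxylase other than osteocalcin had positive differences with β-catenin active, and none passed. All 7 tested of 14 vitamin K-dependent proteins had a positive difference, with a median of 0.21, while 50.0% of all tested probe sets were positive, and limma called 0 of 7, with 2 below 0.05 before adjustment. Gas6, a ligand of the TAM receptor kinases, averaged 11.74 ± 0.30 with β-catenin active and 11.13 ± 0.21 in wild type, a difference of 0.60 (adjusted p = 0.173). A second Gas6 probe set gave -0.09 (adjusted p = 0.930). Mgp, matrix Gla protein, an inhibitor of calcification, differed by 0.42 (adjusted p = 0.203). With FoxO1 deleted the median was 0.19, 0 of 7 passed and 3 had an unadjusted p under 0.05. Ucma, a Gla protein of cartilage, averaged 9.35 ± 1.03 with FoxO1 deleted and 7.65 ± 0.11 in wild type, a difference of 1.69 (adjusted p = 0.3). It passed with array weights (2.36, adjusted p = 0.00859) and in low-Xist arrays, where FoxO1 deleted 1 is the only array of its genotype (2.83, adjusted p = 0.0038). The chondrocyte markers it belongs to summed to 20379 to 55010 in these FoxO1 deleted arrays.

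Insulin signalling genes beside Insr and Ptprv gave no call in limma. Of 21 tested (both members included), 0 passed in any comparison, and 2, 1 and 4 had an unadjusted p under 0.05 for β-catenin active against wild type, FoxO1 deleted against wild type and β-catenin active against FoxO1 deleted. Over all tested probe sets these shares were 11.1%, 7.92% and 7.64%. The medians were 0.05, 0.02 and 0.08. Irs1, the docking protein that carries the signal from the insulin receptor, averaged 12.60 ± 0.07 with β-catenin active and 12.21 ± 0.12 in wild type. This difference of 0.39 (adjusted p = 0.0733) passed with quantile normalization (0.0258) and with array weights (0.0456). Those were 2 of 24 other settings, and it passed in 0 of the 10 that leave out 1 array (highest adjusted p 0.234). Grb14, an adaptor that inhibits the insulin receptor, averaged 10.16 ± 0.36 with β-catenin active and 9.16 ± 0.11 with FoxO1 deleted, a difference of 1.00 (adjusted p = 0.0571), and wild type stood between them at 9.84 ± 0.28. It passed with equal array medians (0.0295), with 1 probe set a gene (0.0494) and with a robust variance prior (0.0426). Those were 3 of 24 other settings, with 0 of the 10 that leave out 1 array passing (highest adjusted p 0.181). With a term for Xist signal the adjusted p for Grb14 was 0.415. Ptpn1, another phosphatase of the insulin receptor, differed from wild type by -0.06 with β-catenin active and by 0.11 with FoxO1 deleted (adjusted p = 0.921 and 0.871).

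Of the known regulators of osteocalcin transcription, Hey1, a Notch target that represses Runx2-driven transcription, was the 1 of 18 tested that passed with β-catenin active. It rose to 10.44 ± 0.24 with β-catenin active, against 8.91 ± 0.31 in wild type, by 1.53 (2.89-fold, adjusted p = 0.0217), and stood 1.77 above FoxO1 deleted at 8.67 ± 0.55 (adjusted p = 0.0152). Leaving out wild type 3, wild type 4, β-catenin active 1 or β-catenin active 3 ended the first call (highest adjusted p 0.0991), and leaving out β-catenin active 1, β-catenin active 3 or FoxO1 deleted 1 ended the second (0.0751). With a term for Xist signal neither passed (adjusted p = 0.0988 against wild type and 0.134 against FoxO1 deleted), and every β-catenin active array has low Xist signal. In low-Xist arrays alone the difference remained. Hey1 was at 10.17 to 10.63 with β-catenin active, against 9.17 and 9.19 in wild type 1 and 2. It stood 1.94 above FoxO1 deleted 1, at 8.50, the only low-Xist array of its genotype. The list's median with β-catenin active was 0.07. Atf4, an activator of osteocalcin that is also known in mice to act on Esp, averaged 12.32 ± 0.05 with β-catenin active, 12.47 ± 0.08 with FoxO1 deleted and 12.46 ± 0.07 in wild type. Its β-catenin active arrays lay under all wild-type arrays, as 12.9% of all tested probe sets did not overlap, with a difference of -0.14 (adjusted p = 0.534). A second Atf4 probe set overlapped, at 11.03 to 11.45 with β-catenin active against 11.22 to 11.56 in wild type. Its difference was -0.24 (adjusted p = 0.676 in limma). Sp7, osterix, differed from wild type by -0.21 with β-catenin active and 0.11 with FoxO1 deleted (adjusted p = 0.742 and 0.911). With FoxO1 deleted 0 of 18 passed in limma, and 1 had an unadjusted p under 0.05.

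Among genes that process osteocalcin or act on it through bone resorption, the genes that passed in any comparison were Tnfrsf11b and Tnfsf11. The proprotein convertase Furin, which cleaves pro-osteocalcin in mice, differed from wild type by 0.02 with β-catenin active and 0.06 with FoxO1 deleted (adjusted p = 0.972 and 0.905). Pcsk5 and Pcsk6, related convertases, differed by 0.22 and 0.13 with β-catenin active (adjusted p = 0.355 and 0.644). Between β-catenin active and FoxO1 deleted samples Pcsk6 differed by 0.31 (unadjusted p = 0.00703, adjusted p = 0.361 in limma). With FoxO1 deleted it differed from wild type by -0.17 (adjusted p = 0.666). The receptor genes Gprc6a, Gpr158 and Gpr37 did not enter the test. Of the 8 resorption genes tested, Tnfrsf11b, osteoprotegerin, was the 1 that passed with β-catenin active, rising to 9.94 ± 0.47, against 8.22 ± 0.44 in wild type, by 1.72 (adjusted p = 0.0303). It did not pass when any 1 of wild type 1 to 3, or of the first 2 β-catenin active arrays, was left out (highest adjusted p 0.129). Tnfsf11, RANKL, passed between β-catenin active and FoxO1 deleted, at 10.94 ± 0.39 and 9.30 ± 0.18, a difference of 1.64 (adjusted p = 0.0318) that was lost without any 1 array of these 2 genotypes (highest adjusted p 0.129). With a term for Xist signal it was 1.32 (adjusted p = 0.253), and in low-Xist arrays 1.82 (adjusted p = 0.0812). Against wild type, at 9.55 ± 0.56, its β-catenin active difference was 1.38 (adjusted p = 0.0557). A second Tnfsf11 probe set passed in limma against wild type at 1.2 (adjusted p = 0.0414) and against FoxO1 deleted at 1.61 (adjusted p = 0.0152). That probe set was not followed through the other settings. Ctsk, the collagen-degrading protease of osteoclasts, differed from wild type by -0.07 with β-catenin active. Tcirg1, a subunit of their proton pump, differed by -0.00 (adjusted p = 0.897 and 0.996 in limma). These are flat genes beside the osteoclast markers as a set. All 7 osteoclast markers tested, of 8 listed and Ctsk included, had a negative difference from wild type in both altered genotypes. Their medians were -0.32 with β-catenin active and -0.44 with FoxO1 deleted, and none passed in limma. Car2, a carbonic anhydrase of osteoclasts and red cells named after its values were seen, averaged 10.06 ± 0.75 with FoxO1 deleted and 11.25 ± 0.70 in wild type, a difference of -1.18 (adjusted p = 0.483). With β-catenin active it differed from wild type by -0.59 (adjusted p = 0.622 in limma).

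Osteoblast maturation and matrix genes gave 0 calls of 12 in each comparison in limma, with 3, 1 and 3 at an unadjusted p under 0.05 for β-catenin active against wild type, FoxO1 deleted against wild type and β-catenin active against FoxO1 deleted. The shares over all tested probe sets were 11.1%, 7.92% and 7.64%. Alpl, the alkaline phosphatase of mineralising osteoblasts, averaged 12.36 ± 0.30 with β-catenin active, 12.12 ± 0.06 with FoxO1 deleted and 12.10 ± 0.13 in wild type. Sost and Phex, both made by osteocytes, had the smallest p-values, with β-catenin active differences from wild type of 0.95 and 0.54 (adjusted p = 0.0746 and 0.107). Sost passed with equal array medians (0.0346), with only the compared groups (0.0439), with array weights (0.0341) and without β-catenin active 2 (0.0294) or FoxO1 deleted 2 (0.0358). Those were 5 of 24 other settings, among them 2 of the 10 that leave out 1 array (highest adjusted p 0.228). A second Phex probe set gave 0.14 (adjusted p = 0.89). The widest difference was that of Mepe, a matrix protein of osteocytes named after its values were seen, which was at 7.96, 4.15 and 6.37 with β-catenin active, 8.53, 9.21 and 9.13 with FoxO1 deleted and 8.16, 8.71, 8.54 and 8.62 in wild type. All its β-catenin active arrays were the lowest, with a difference from wild type of -2.35 (adjusted p = 0.162). The values of 4.15 and 6.37 lay under the table's median of 7.15, where signal is weak. The SD was 1.91 with β-catenin active against 0.24 in wild type, so the size of this difference is uncertain.

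**Figure D3:**
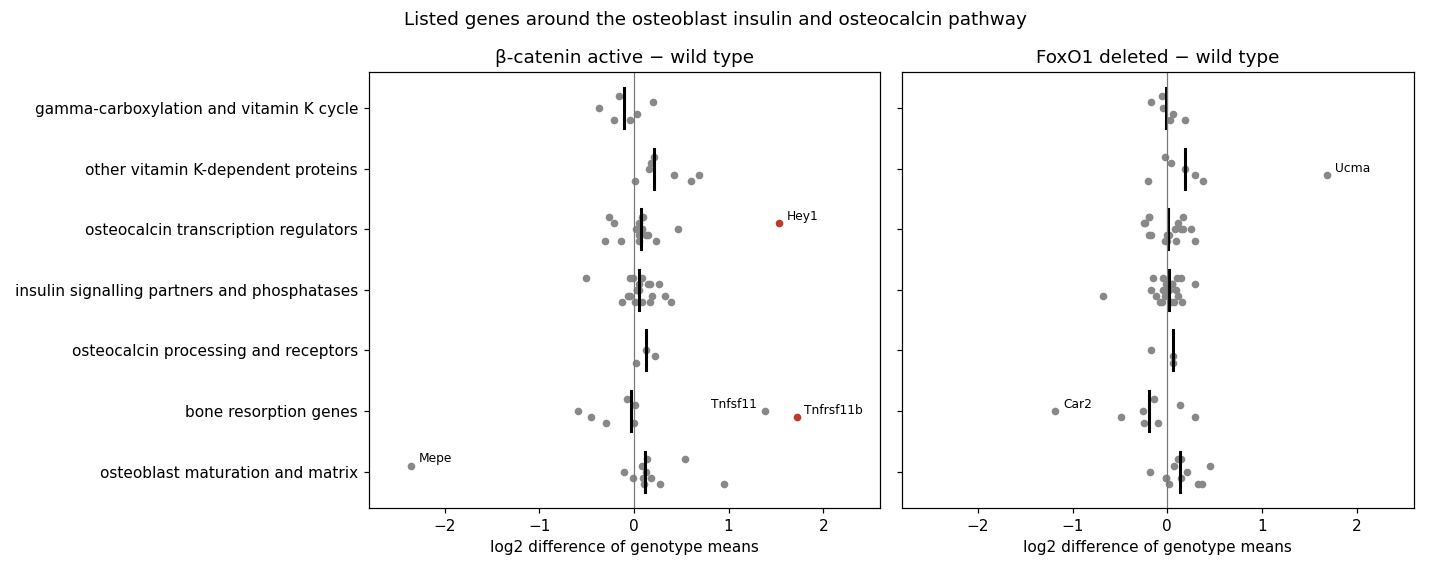
Log2 difference of genotype means (horizontal axis) for each tested gene of the 7 lists (rows), β-catenin active minus wild type on the left and FoxO1 deleted minus wild type on the right. Points are genes, red where the adjusted p is under 0.05, black bars are list medians, and names mark differences beyond 1 in size. Hey1 at 1.53 and Tnfrsf11b at 1.72 are the red points, and the medians lie between -0.20 and 0.21.

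The probe sets most like Ptprv in pattern were ranked by Pearson's r over the 10 arrays among 20126 tested probe sets of 1 gene, as a description without a test. They were Cog1 (1456740_x_at, r = 0.957), Casz1 (0.906), Zfp407 (0.899), Dcc (0.894) and Thoc5 (0.886). Cog1, Casz1 and Dcc had means of 7.26, 6.93 and 6.98, close to the table's median. The arrays share this ranking's weight unevenly, since β-catenin active 2 was 0.43 below the next-lowest array for Ptprv.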

How the data were processed

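Expression was taken from the deposited table of 10 arrays and 45101 probe sets, whose values are log2 MAS5 signal. The submitters' processing notes name MAS5 and give no version. Labelling started from 500 ng of RNA, per the labels. The log2 base and the scaling of the deposited values follow from the numbers: taken as log2, the linear mean after trimming 2% at each end was 499.993 to 500.013 in every array. Gene symbols came from the platform annotation. Columns were assigned to genotypes by sample title.

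A probe set was tested if at least 3 of the 10 arrays exceeded the median of the whole table (7.15), which kept 23815, with 1 gene (20127), several (554) or none (3134) listed. They were fitted with limma 3.58.1 in R 4.3.3, 1 mean per genotype and no covariates, with eBayes and a mean-variance trend, two-sided, with Benjamini-Hochberg adjustment over all 23815 and a threshold of 0.05. The fit has 7 residual degrees of freedom and was tested on simulated data. Probe sets rather than genes were the unit because osteocalcin copies share probe sets, but the annotation used here lists none for them, so results planned for osteocalcin, and for the probe sets most like it, were not made. Listed genes are represented by their tested 1-gene probe set of highest mean.

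Named besides the members are list genes that passed, or else the 2 of smallest p in a list, with Sp7, Atf4, Foxo1, Col1a1, Alpl, Ibsp, Xist, Eif2s3y and the 5 probe sets nearest to Ptprv. Vkorc1l1, Calu, Mgp, Ptpn1, Furin, Ctsk, Tcirg1, Acta1, Csf1r, Mpo, Mepe, Car2 and the receptor genes were named after their values were seen. Runx2 was not analysed here. Alternatives were another filter, scaling, unit or variance model, a replicate block, an Xist term, averaged wild-type pairs, each array left out, and, added after seeing the data, low- or high-Xist arrays alone. Replicate numbers were tested for pairing: same-number arrays correlated at -0.25 to 0.23 in their deviations from genotype means, 1 of 9 pairs above 0.1, so they were not treated as pairs. Members and lists were chosen with earlier results of these data known. The number of arrays limits the precision.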

Additional observations from a re-analysis of the deposited data

Results flagged for a closer look

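For 5 genes, results went opposite ways in FoxO1 deleted against wild-type arrays of high and of low Xist signal, with no overlap of the arrays on either side. Only the tested member probe sets and the genes named by rule were examined for this. The share of all tested probe sets with such a pattern was not counted. With so few arrays on each side, the count of 5 is a description only and does not show a dependence on Xist signal. The low-Xist side holds FoxO1 deleted 1 alone, and the difference between sides was tested with limma over all 23815 probe sets (5 residual degrees of freedom, 61 called).
Ggcx differed from wild type by 0.12 in high-Xist and -0.27 in low-Xist arrays, a difference between sides of 0.39 (adjusted p = 0.726). For Tnfsf11 these were 0.32 and -0.92, 1.24 apart (adjusted p = 0.235). Phex had 0.34 and -0.20, 0.54 apart (adjusted p = 0.523). Sp7 had 0.42 and -0.30, 0.72 apart (adjusted p = 0.543). Alpl had 0.15 and -0.13, 0.28 apart (adjusted p = 0.838). None of the 5 passed the test of the difference.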

How the results depend on the processing

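Under 25 other settings, 10 of which leave out 1 array, all 73 counts of member probe sets called were 0. Ggcx (1423554_at) with β-catenin active against wild type ran from -0.50 to -0.30 (adjusted p 0.17 to 0.847) and Vkorc1 from -0.19 to -0.12 (0.294 to 1). Counts over all probe sets moved: from 107 for β-catenin active against wild type to 170 with only the compared groups, 56 without a variance trend, 11 with similar wild-type arrays averaged, 41 with a term for Xist, 218 in low-Xist arrays and 38 to 131 leaving out 1 array. From 4 for FoxO1 deleted against wild type they moved to 2 without a filter, 10 with 16 added on the linear scale, 1 with only the compared groups, 8 without a trend, 7 with a robust prior, 87 with array weights, 135 in low-Xist arrays and 0 to 8 leaving out 1 array, and limma called 0 with wild-type arrays averaged (749 at an unadjusted p under 0.05) and 0 in high-Xist arrays (1991). From 96 for β-catenin active against FoxO1 deleted they moved to 18, 29, 15 and 14 with only the compared groups, wild-type arrays averaged, an Xist term and low-Xist arrays, and 32 to 75 leaving out 1 array. The replicate block gave 20, 0 (1287 at an unadjusted p under 0.05) and 26 calls for the 3 comparisons, and ended those of Hey1 (adjusted p = 0.103) and Tnfrsf11b (0.0799) with β-catenin active against wild type and of Tnfsf11 against FoxO1 deleted (0.0742), although the numbers do not pair these arrays. Averaging similar wild-type arrays gave 0.24 for Hey1 and Tnfrsf11b against wild type, and 0.0534 for Hey1 and 0.0615 for Tnfsf11 against FoxO1 deleted. Without a trend, Hey1 (0.0503) and Tnfrsf11b (0.0634) against wild type and Tnfsf11 against FoxO1 deleted (0.0733) did not pass, nor did Tnfsf11 with a robust prior (0.0617) or Hey1 against FoxO1 deleted with only the compared groups (0.062). Tnfsf11 against wild type passed with equal medians (0.0346) and 1 probe set a gene (0.047), and Ucma between β-catenin active and FoxO1 deleted in low-Xist arrays (-2.07, 0.0416).
Differences that turned sign were all uncalled. With β-catenin active against wild type, leaving out 1 array gave -0.39 to 0.36 for Ggcx 1445898_at, -0.06 to 0.08 for Insr and -0.26 to 0.22 for Ptprv, Insr was 0.02 with array weights and 0.01 with an Xist term, and Col1a1 -0.03 with quantile normalization. Against FoxO1 deleted, leaving out 1 array gave -0.67 to 0.08 for Ggcx 1445898_at, -0.36 to 0.12 for Ptprv and -0.06 to 0.09 for Col1a1, which was -0.03 with equal medians. With FoxO1 deleted against wild type, leaving out 1 array gave -0.12 to 0.02 for Ggcx, -0.04 to 0.06 for Alpl, -0.02 to 0.05 for Atf4, -0.01 to 0.14 for Col1a1, -0.06 to 0.05 for Ibsp and -0.02 to 0.21 for Sp7. High-Xist arrays gave 0.12 for Ggcx, 0.11 for Hey1, -0.07 for Atf4, 0.04 for Ibsp and 0.32 for Tnfsf11, and low-Xist arrays 0.02 for Vkorc1, -0.14 for Alpl, -0.20 for Phex and -0.31 for Sp7. Array weights gave -0.01 for Alpl and -0.02 for Sp7, the block -0.04 for Alpl, an Xist term -0.00 for Atf4 and 0.01 for Ibsp, equal medians 0.03 for Ibsp, and quantile normalization -0.04 for Col1a1. The causes were not tested.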
